A study of Homo sapiens with 6 samples.

Results

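Transcripts of the MYC, MAX and MXD network were followed in MV4;11, a line of human acute myeloid leukaemia that carries the MLL-AF4 fusion. The cells had been kept for 3 h in 25 nM cortistatin A, a steroidal alkaloid that inhibits the Mediator kinases CDK8 and CDK19, or in the solvent DMSO. Each group had 3 Affymetrix Human U133 Plus arrays, all from the same line and plated as wells in triplicate. The labels do not say that the wells were separate cultures, so the p-values cover the spread between these wells alone, and that spread may be technical. The network was taken as the 8 genes MYC, MAX, MXD1, MXD3, MXD4, MXI1, MNT and MGA, chosen by name. The platform annotation gives 20 of the 54675 probe sets to exactly 1 of these symbols, and 7 of the 8 genes were among the 19775 genes tested through a probe set that names a single gene. The 3 probe sets of MXD4 also name the microRNA gene MIR4800 and were described apart. Values are RMA values on the log2 scale, where a difference of 1 means a doubling, and each gene is represented by its brightest probe set, taken by the mean of the 6 arrays. Such values do not allow the level of a gene to be set against that of another.

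MYC is a basic helix-loop-helix leucine zipper factor that binds DNA only as a partner of MAX, mostly at the E-box CACGTG, and drives growth and metabolic genes in many tissues. MXD1, MXI1, MXD3, MXD4 and MNT compete for MAX and bring the SIN3 corepressor to the same kind of site. MGA pairs with MAX inside a polycomb complex. MYC is needed by many acute myeloid leukaemias, and MXD genes are known to come on as myeloid cells mature.

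Of the 19775 genes, 115 differed between cortistatin A and DMSO arrays at a limma adjusted p under 0.05 (0.582%), with 88 higher with the drug (0.445%). The cortistatin A values all lay above the DMSO values for 10.2% of genes and all below for 9.22%. Array medians were 3.74 to 3.77. All 7 measured markers of myeloid leukaemia cells (CD33 and HOXA9 had no single-gene probe set) lay above 3.74, the median of all probe sets, with a summed level of 12.67 to 12.80 on cortistatin A arrays and 12.67 to 12.78 on DMSO arrays. Summed markers of T cells (2 of 3 above that median), B cells (1 of 2), erythroid cells (2 of 2) and epithelial cells (1 of 3) lay between 4.54 and 5.50 in either group. The myeloid sum was mostly LYZ, with a mean of 12.41 over all arrays. FLT3 (9.56) and MEIS1 (8.70) came next, and CSF1R (5.62), MPO (5.23), ITGAM (5.22) and SPI1 (4.36) were dimmer. The sums hold different numbers of genes, and levels of different genes cannot be compared, so the sums do not rank cell types. No marker passed the test, none was at 0, and the lowest was EPCAM at 1.43 to 1.81.

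MYC was the member called, at 1.31 times its DMSO level. It read 11.12, 11.15 and 11.13 on the cortistatin A arrays, against 10.76, 10.69 and 10.77 on the DMSO arrays. The lowest cortistatin A array lay above the highest DMSO array. The means were 11.13 ± 0.01 with cortistatin A and 10.74 ± 0.05 with DMSO (SD, n = 3 each), and the change was 0.39 ± 0.05 (SE) with a 95% interval of 0.28 to 0.51 (limma adjusted p = 0.0332). In fold terms the interval ran from 1.21 to 1.43. Among the 88 genes called higher MYC ranked 75 by size of the change. It was measured by 1 probe set, of the _s_at type, which can match several transcripts. In a bulk sample more cells with the transcript and more transcript per cell cannot be told apart.

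The size of the MYC change moved little under the settings that could move it, while its call often ended. By design the estimate stayed at 0.39 with the replicate block, dim genes left out, the mean of probe sets and trended variances. The same holds for the fold and second p thresholds and the fit over all probe sets. Over 17 alternatives the change lay between 0.37 and 0.41, and the call remained in 6 and ended in 11, with adjusted p from 1.6e-06 to 0.380. A fold of at least 1.2 and an adjusted p under 0.1 could not end the call. Leaving out any of the 6 arrays ended it (adjusted p 0.122 to 0.159, unadjusted limma p 0.000472 to 0.000715), and in those fits 0 to 4 genes were called in all. The 3' minus 5' signal of 3 human mRNA controls (how far the labelled RNA reached back from its 3' end) was 2.81 to 2.92 on cortistatin A arrays and 2.76 to 2.78 on DMSO arrays. With this index as a covariate the MYC change was 0.40 ± 0.09 (SE, limma adjusted p = 0.380).

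**Figure D1:**
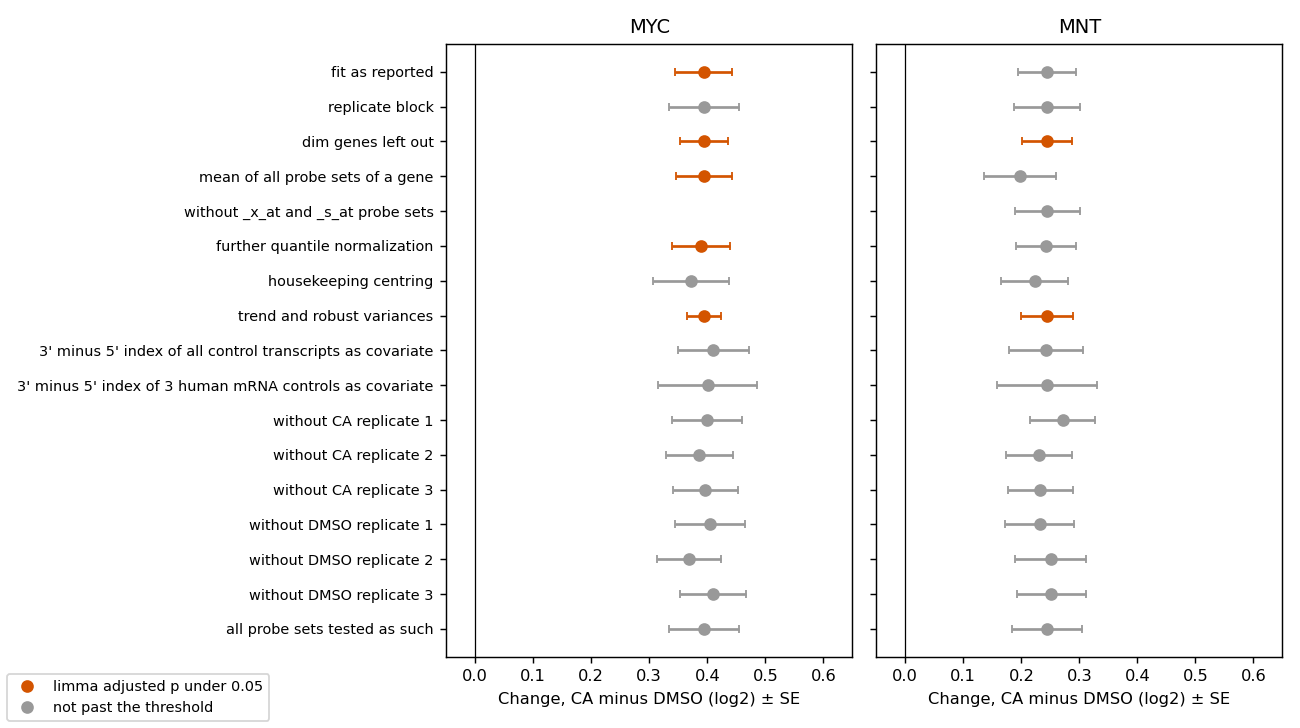
Change of MYC (left) and MNT (right) on the log2 scale, cortistatin A (CA) minus DMSO, with the limma standard error, for the fit as reported and the other settings named on the vertical axis. Points in orange passed a limma adjusted p under 0.05. MYC lay between 0.37 and 0.41 throughout and has no point without _x_at and _s_at probe sets, and MNT lay between 0.20 and 0.27.

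MAX, the shared partner, did not pass the test. It read 9.79, 9.82 and 9.84 with cortistatin A, against 9.79, 9.66 and 9.77 with DMSO, and the groups overlapped. The change was 0.08 ± 0.06 (SE, limma adjusted p = 0.637), and its 95% interval of -0.06 to 0.21 covers 0.96-fold to 1.16-fold. All 5 MAX probe sets lay above the median of all probe sets, and their changes ran from -0.06 to 0.09. The second brightest, at 0.05, was higher on all cortistatin A arrays, without overlap. In a fit over all 54613 probe sets other than controls, 28 were called (0.0513%) and none of the 20 of the network was, MYC included (0.39 ± 0.06, limma adjusted p = 0.106), while 2 of the 20 had an unadjusted p under 0.05.

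The MXD repressors showed no change that passed. MXD1, which accompanies myeloid differentiation, read 6.18, 6.13 and 6.27 with cortistatin A, against 6.15, 6.18 and 6.22 with DMSO, and the groups overlapped. Its change was 0.0088 ± 0.0565 (SE), with a 95% interval of -0.13 to 0.14 (limma adjusted p = 0.966). The other probe sets of MXD1 stood at -0.07 and, in a dim one, at 0.21. MXD3, a repressor described in dividing cells in mouse development, read 6.18, 6.18 and 6.15 with the drug and 6.13, 6.18 and 6.16 with DMSO. Its change of 0.01 ± 0.05 (SE) had a 95% interval of -0.10 to 0.12 (limma adjusted p = 0.952). For both genes the sign turned under some settings, MXD1 to -0.013 and MXD3 to -0.012 with arrays centred on housekeeping genes.

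MXI1, also known as MXD2, did not pass the test either. It read 9.10, 9.16 and 9.15 with cortistatin A, against 9.31, 9.21 and 9.23 with DMSO. All 3 cortistatin A arrays lay below the DMSO arrays, by a small margin. The change was -0.12 ± 0.05 (SE), or 1.08-fold lower, with a 95% interval of -0.24 to 0.0065 (limma adjusted p = 0.417). The brightest probe set naming MXD4 and MIR4800 read 6.46, 6.44 and 6.45 with cortistatin A, against 6.48, 6.53 and 6.58 with DMSO. Those groups did not overlap either. In the fit over all probe sets its change was -0.08 ± 0.06 (SE), with a 95% interval of -0.22 to 0.06 (limma adjusted p = 0.696). The other MXD4 probe sets were at -0.10 and -0.17, both with overlapping groups, and which of the genes named they measure cannot be told apart.

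MNT, a MAX partner that opposes MYC and is made in most cells, came nearest to the threshold after MYC. It read 7.86, 7.94 and 7.94 with cortistatin A, against 7.64, 7.68 and 7.68 with DMSO. The groups did not overlap, and the gap between them was wider than the spread inside either. The change was 0.24 ± 0.05 (SE), or 1.18-fold, with a 95% interval of 0.13 to 0.36 (limma adjusted p = 0.127). The second, dimmer MNT probe set stood at 0.15, with overlapping groups. MNT passed with dim genes left out (limma adjusted p = 0.0377), where 1.68% of genes were called higher, and under trended, robust variances (limma adjusted p = 0.0057), where 2.30% were. Over all 18 alternatives its change was 0.20 to 0.27 with adjusted p from 0.0057 to 0.477.

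MGA, the scaffold that ties MAX to the polycomb complex PRC1.6, read 8.03, 8.01 and 8.02 with cortistatin A, against 7.98, 8.05 and 8.02 with DMSO. The values were interleaved. Its change was -0.00094 ± 0.0468 (SE), with a 95% interval of -0.11 to 0.11 (limma adjusted p = 0.996), so a difference beyond 1.08-fold higher lay outside the interval. The other 3 MGA probe sets were at -0.04, 0.0017 and 0.05, the last of them dim. Of the 7 genes tested, 1 was called, against 0.582% of all genes. The members were chosen with earlier results of these data known, so this count is no measure of enrichment. Cortistatin A arrays lay above all DMSO arrays for 2 of the 7 (10.2% of all genes) and below for 1 (9.22%). The median change was 0.01, against 0.0065 for all genes.

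**Figure D2:**
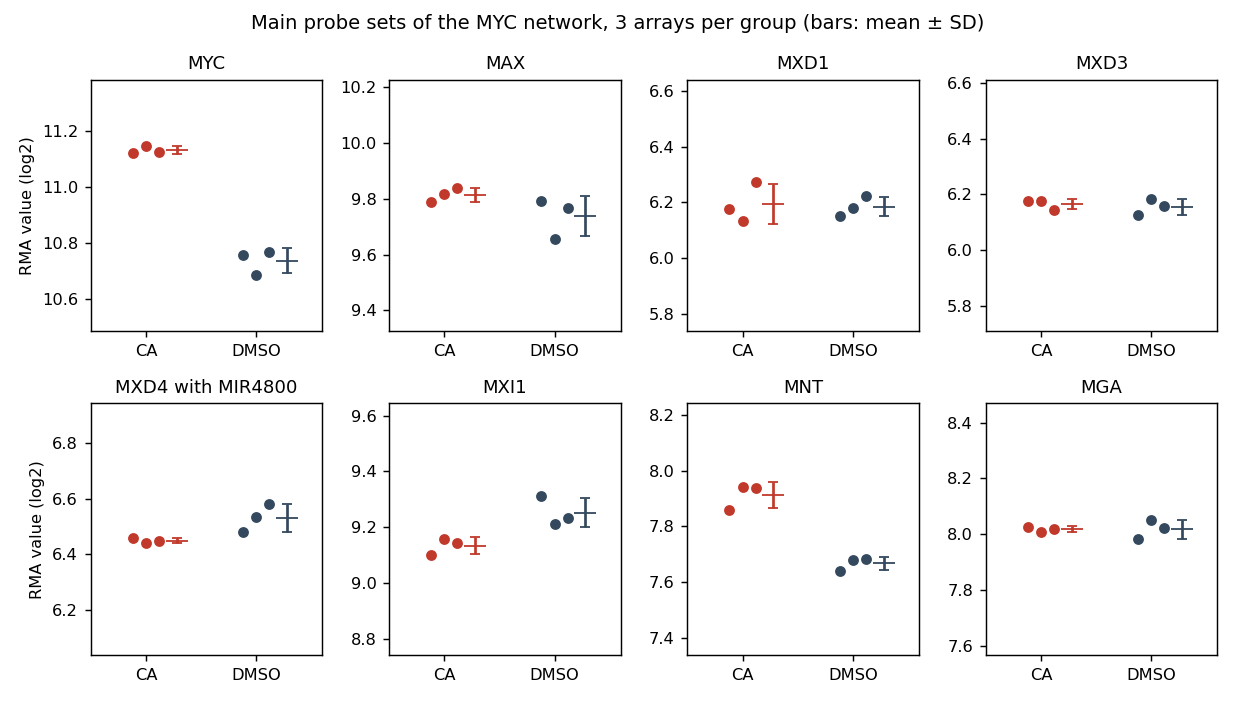
RMA values (log2) of the main probe set of each member on the 3 cortistatin A (CA) arrays, left in each panel, and the 3 DMSO arrays, right; horizontal ticks with bars are the mean and SD. Every panel spans the same range on its own level: MYC and MNT lie apart with CA higher, MXI1 and the probe set of MXD4 with MIR4800 lie apart with CA lower, and the other 4 overlap.

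**Figure D3:**
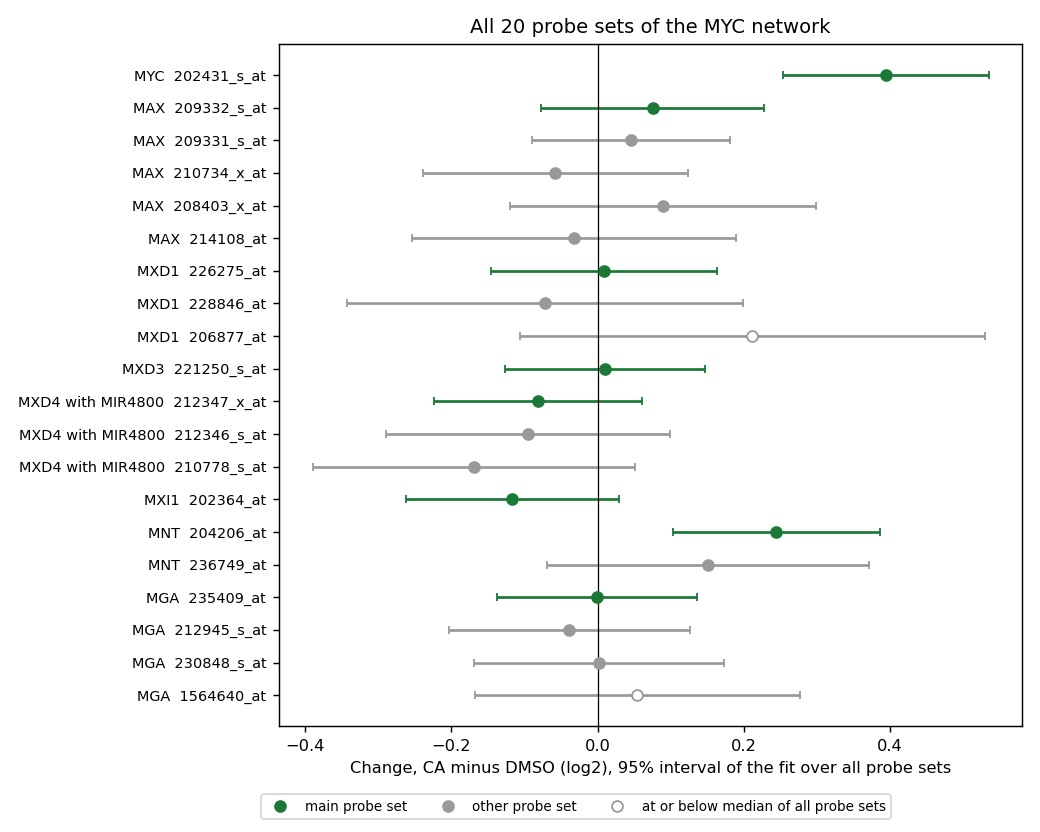
Change of all 20 probe sets on the log2 scale, CA minus DMSO, with the 95% interval from the fit over all probe sets; green marks the main probe set of each gene, and open circles do not exceed the overall median. The intervals of MYC (0.25 to 0.53) and MNT (0.10 to 0.39) exclude 0, and those of the other main probe sets include it.

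The starts of the members were read for the E-box because it is the site this network binds. RefSeq promoter sequences (GRCh38.p14) were matched for 7 of the 8 members, all but MYC, and the 250 bases before each start were searched for CACGTG, which reads the same on both strands. The motif was present in 2 of the 7, MNT and MXD4, at 193 and 238 bases before the start. It was present in 6.35% of all 35116 promoters of this length, a share counted by start and not by gene. Counted by gene, 1490 tested genes with a promoter held it at any start and 13894 did not. The MNT stretch is chr17:2401061-2401310 and the MXD4 stretch chr4:2262110-2262359, both on the minus strand, with the motif in capitals. MNT is the member next to the threshold and stood at 0.24, while the brightest MXD4 probe set stood at -0.08. A match is a description of the letters and not of binding.
MNT: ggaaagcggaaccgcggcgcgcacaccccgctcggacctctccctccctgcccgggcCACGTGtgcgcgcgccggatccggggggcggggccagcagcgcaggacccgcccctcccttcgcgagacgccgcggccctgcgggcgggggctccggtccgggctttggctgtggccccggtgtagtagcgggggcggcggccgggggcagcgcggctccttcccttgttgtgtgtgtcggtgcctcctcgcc
MXD4: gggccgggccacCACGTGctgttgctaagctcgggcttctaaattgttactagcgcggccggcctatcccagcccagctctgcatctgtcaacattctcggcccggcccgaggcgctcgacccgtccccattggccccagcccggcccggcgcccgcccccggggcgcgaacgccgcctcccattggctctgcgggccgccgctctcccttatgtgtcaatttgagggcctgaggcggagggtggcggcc

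The wider network holds MYCN and MYCL, relatives of MYC, and MLX with its partners MLXIP (MondoA) and MLXIPL (ChREBP), which sense glucose metabolites. None of these 5 genes passed, where 0.582% of all genes did. The groups overlapped for the main probe set of each, as they did for most genes. Groups lay apart for 10.2% of all genes in the higher direction and 9.22% in the lower. MLX read 8.57, 8.61 and 8.64 with cortistatin A, against 8.66, 8.69 and 8.61 with DMSO, a change of -0.05 ± 0.05 (SE, 95% interval -0.17 to 0.07, limma adjusted p = 0.748). The 6 MLX probe sets ran from -0.17 to 0.18, and the one at -0.17 was lower on all cortistatin A arrays, without overlap. MLXIP read 7.36, 7.31 and 7.18 with the drug and 7.36, 7.30 and 7.37 with DMSO, a change of -0.06 ± 0.06 (SE, 95% interval -0.21 to 0.09, limma adjusted p = 0.746). MLXIPL was at 0.11, MYCL at 0.12 and MYCN at 0.05, all on dimmer probe sets, with limma adjusted p from 0.666 to 0.937.

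TXNIP, a brake on glucose uptake and a known target of MLXIP with MLX, fell. It read 9.12, 9.22 and 9.11 with cortistatin A, against 10.11, 10.10 and 10.07 with DMSO, a change of -0.95 ± 0.05 (SE, limma adjusted p = 0.0043), or 1.93-fold lower. Its other probe sets were at -0.88 and -0.85. The call ended in 7 of 17 alternatives, among them leaving out cortistatin A replicate 1 or 3 or DMSO replicate 1 or 2 (adjusted p 0.0585 to 0.0623, change -0.94 to -0.93). ARRDC4, a relative of TXNIP and the other classical target, read 0.03 ± 0.07 (SE, 95% interval -0.12 to 0.19, limma adjusted p = 0.880). HK2, the first enzyme of glycolysis, stood at 0.19, KLF10, a zinc finger factor, at 0.11 and PFKFB3, a regulator of glycolysis, at 0.09, with limma adjusted p of 0.218, 0.526 and 0.574. So 1 of these 5 targets was called, lower, where 0.137% of all genes were. The list was chosen with earlier results of these data known, so this count is no measure of enrichment. The difference between TXNIP and the others was not tested.

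The promoters of MLX and TXNIP are shown because MLX dimers bind both the E-box and a paired form of it, the carbohydrate response element. The paired form was searched on both strands as CACGNG, any 5 bases and CACGNG again. It was found in 0.0456% of the 35116 promoters, 16 in all, of which 1 belongs to TXNIP, at 88 bases before the start. MLX held the single CACGTG at 50 bases before its start, and ARRDC4 held a CACGTG at 210 bases. The MLX stretch is chr17:42566850-42567099 on the plus strand and the TXNIP stretch chr1:145996580-145996829 on the minus strand. Capitals mark CACGTG in MLX and both hexamers of the pair in TXNIP.
MLX: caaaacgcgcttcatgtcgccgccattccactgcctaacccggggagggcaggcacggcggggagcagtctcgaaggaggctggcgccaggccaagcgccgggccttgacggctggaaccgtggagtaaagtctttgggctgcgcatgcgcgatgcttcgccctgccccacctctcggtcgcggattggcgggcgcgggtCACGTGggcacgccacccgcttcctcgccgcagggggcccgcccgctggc
TXNIP: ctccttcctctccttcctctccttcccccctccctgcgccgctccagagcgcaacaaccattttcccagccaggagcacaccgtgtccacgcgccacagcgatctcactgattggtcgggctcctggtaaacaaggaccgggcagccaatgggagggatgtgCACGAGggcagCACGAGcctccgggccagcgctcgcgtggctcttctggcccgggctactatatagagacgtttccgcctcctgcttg

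Cofactors of the network held no call, where 0.582% of all genes were called, so 0 in lists this short says little about them. Among 11 MYC coactivators 0 were called, 4 were above 0 and 7 below, and the median was -0.03, against 0.0065 for all genes. ACTL6A, a subunit shared by chromatin remodellers, had the smallest p (0.23 ± 0.12, SE, limma adjusted p = 0.485), before TRRAP, the scaffold of histone acetyltransferases (-0.12), the ATPase RUVBL1 (0.09) and ZBTB17, the MIZ1 factor through which MYC represses (-0.10). In the SIN3 corepressor, 0 of 10 measured genes were called and the median was -0.01. SAP30, a linker of SIN3 to the deacetylases, stood at 0.18 ± 0.05 (SE, limma adjusted p = 0.250), while the subunit ARID4B stood at -0.08, the scaffold SIN3A at -0.08 and the histone-binding RBBP7 at -0.04.

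The MGA complex had 0 of 9 measured genes called, near the 0.582% of all genes, with a median of -0.06. YAF2 and RYBP, alternative subunits that bind RING proteins, stood on opposite sides. YAF2 read 6.53, 6.48 and 6.48 with cortistatin A, against 6.66, 6.73 and 6.70 with DMSO, a change of -0.20 ± 0.05 (SE, limma adjusted p = 0.184). RYBP read 9.02, 8.97 and 9.21 with the drug, against 8.83, 8.81 and 8.81 with DMSO, a change of 0.25 ± 0.07 (SE, limma adjusted p = 0.227). Neither pair of groups overlapped. TFDP1, the E2F partner, was at -0.13 and the ubiquitin ligase RING1 at -0.09, also without overlap. In all, 4 of the 9 genes lay lower without overlap, as did 9.22% of all genes, and 1 lay higher, as did 10.2%. Under trended, robust variances 1 gene of the list was called higher and 1 lower, where 2.30% of all genes were called higher and 1.55% lower.

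Among 17 measured genes of MYC turnover 1 was called, FBXO32, against 0.582% of all genes, 0.137% in the lower direction. This list too was chosen with earlier results of these data known, so the count is no measure of enrichment. The list median was -0.05, against 0.0065 for all genes. In all, 6 of the 17 lay lower without overlap (9.22% of all genes) and 1 lay higher (10.2%). Under trended, robust variances 3 were called lower and 1 higher, where 1.55% of all genes were called lower and 2.30% higher. FBXO32, a ubiquitin ligase subunit reported to target MYC, fell. It read 3.35, 3.11 and 3.19 with cortistatin A, against 3.95, 3.71 and 3.98 with DMSO, a change of -0.66 ± 0.10 (SE, limma adjusted p = 0.0487). This is a dim probe set, with a mean of 3.55 over all arrays against an overall median of 3.74. The call ended in 14 of 17 alternatives, with the change at -0.14 for the mean of its 7 probe sets and -0.74 to -0.61 with any array left out. GSK3B, the kinase that marks MYC for degradation, read 8.05, 8.03 and 8.02 with cortistatin A, against 8.34, 8.29 and 8.48 with DMSO, and the groups did not overlap. Its change of -0.34 ± 0.06 (SE, limma adjusted p = 0.0941) missed the threshold. Its other probe sets above the overall median were at -0.12 and -0.17, also without overlap. The dim ones were at 0.23 and -0.16, with overlapping groups. The deubiquitinases USP36 and USP37, both reported to stabilise MYC, stood at 0.28 and -0.28 (limma adjusted p = 0.156 and 0.176). FBXW7, the ligase that reads the GSK3 mark, was at 0.02 ± 0.05 (SE, limma adjusted p = 0.899).

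Factors of the MYC locus and promoter had 0 of 7 measured genes called, with a median of -0.05. The 11 measured housekeeping genes had 0 called and a median of -0.0067. Both counts are near the 0.582% of all genes called. The insulator protein CTCF stood at -0.11 and the promoter-binding proteins CNBP and FUBP1 at 0.10 and -0.08. PVT1, the noncoding neighbour of MYC, read 3.57, 3.82 and 3.44 with cortistatin A, against 3.41, 3.38 and 3.46 with DMSO. This probe set was dim and the groups overlapped, and the change was 0.19 ± 0.10 (SE, limma adjusted p = 0.500).

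Among 26 measured genes known to be activated by MYC 0 were called. As 0.582% of all genes were called, 0 of 26 says little about these genes. Their median change was 0.03, against 0.0065 for all genes, and 21 of the 26 were above 0, against 52.4% of all genes. All changes lay between -0.04 and 0.20. MAT2A, which makes S-adenosylmethionine, read 10.15, 10.09 and 10.10 with cortistatin A, against 9.93, 9.94 and 9.87 with DMSO (0.20 ± 0.05, SE, limma adjusted p = 0.186). The transferrin receptor TFRC stood at 0.16, the cyclin CCND2 at 0.16 and the chaperonin HSPE1 at 0.10, with limma adjusted p from 0.227 to 0.509. Groups did not overlap for 5 of the 26, all higher with the drug (10.2% of all genes). With the index of 3 human mRNA controls as a covariate, a fit chosen after seeing the data, the list median was -0.02. In every other setting the median was above 0, from 0.01 with housekeeping centring to 0.05 without cortistatin A replicate 2. With trend and robust variances 2 of the 26 were called, both higher, as were 2.30% of all genes. Of the 23 targets with a promoter in the RefSeq table, 10 held CACGTG and had a median change of 0.04, and the 13 without it had 0.03. Over all genes with a promoter there, the 1490 with CACGTG had a median of 0.01 and the 13894 without it 0.0043.

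Genes known to be repressed by MYC held 1 call among 11 measured, CEBPA, where 0.582% of all genes were called and 0.445% called higher. As this list was chosen with earlier results of these data known, the count is no measure of enrichment. The list median was 0.08, against 0.0065 for all genes. Of the 11, 4 lay higher without overlap (10.2% of all genes) and 1 lay lower (9.22%). Under trended, robust variances 3 were called higher and 1 lower, where 2.30% of all genes were called higher and 1.55% lower. CEBPA, the myeloid master regulator, read 10.84, 10.85 and 10.87 with cortistatin A, against 10.47, 10.42 and 10.40 with DMSO. It rose by 0.42 ± 0.05 (SE, limma adjusted p = 0.0248), or 1.34-fold, and the call ended in 11 of 18 alternatives, among them leaving out each of the 6 arrays (change 0.41 to 0.44). CDKN1A, the p21 inhibitor of cyclin-dependent kinases, lay on the other side at 6.48, 6.57 and 6.58 with cortistatin A, against 6.92, 6.84 and 6.89 with DMSO. Its groups did not overlap, and the change of -0.34 ± 0.05 (SE, limma adjusted p = 0.0679) missed the threshold. The growth factor receptor PDGFRB was at 0.20 and the stress gene NDRG1 at 0.23, with limma adjusted p of 0.277 and 0.278.

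**Figure D4:**
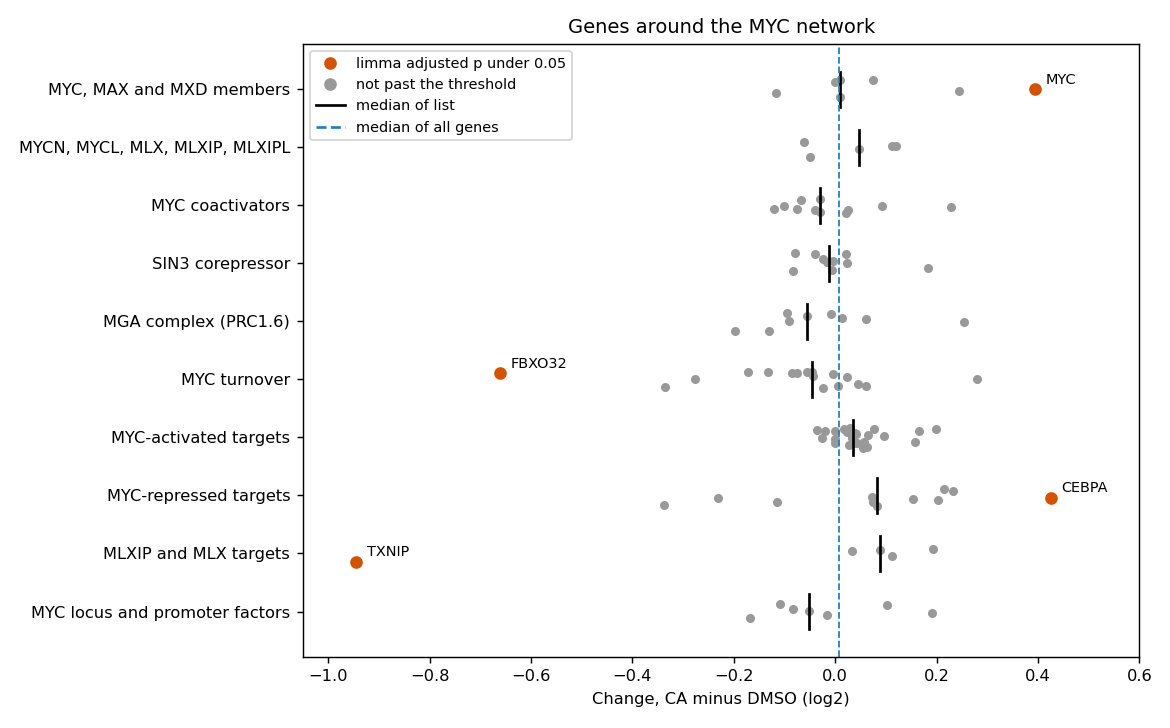
Change on the log2 scale, CA minus DMSO, of each measured gene of 10 lists; orange points passed a limma adjusted p under 0.05 and are named, short black lines are list medians and the dashed line is the median of all genes (0.0065). The 4 orange points are MYC at 0.39, CEBPA at 0.42, FBXO32 at -0.66 and TXNIP at -0.95.

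The genes with the pattern most like that of MYC over the 6 arrays were looked up among 12636 others above the median of all probe sets. They were P2RY6, a receptor for UDP (Pearson r = 0.997), IRF2BPL (0.995), the chemokine receptor CCR2 (0.995), MORN2 (0.995) and the small GTPase RAB33A (0.994). The 6 points form a cortistatin A cluster and a DMSO cluster and come from the same arrays, so these values mainly describe a shared difference between the groups. P2RY6 read 8.58, 8.62 and 8.63 with cortistatin A, against 8.07, 7.89 and 8.05 with DMSO. Like MYC, P2RY6 was lowest on DMSO replicate 2, a likeness that the choice by correlation favours. Its change was 0.61 ± 0.06 (SE, limma adjusted p = 0.0227). That of IRF2BPL was 0.08 (limma adjusted p = 0.505).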

How the data were processed

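Total RNA was made into biotinylated cRNA with a 3' in vitro transcription kit and hybridised to single-colour arrays, per the labels' protocols. RNA came from a Qiagen column kit or TRIzol, and the sources used here do not say which array had which. The deposited table holds log2 values that the authors made with RMA in the affy package, per the submitters' processing notes; the log2 scale was inferred from the range of 0.81 to 13.84. RMA in its usual form subtracts background and quantile-normalizes, which compresses small changes near background and removes a shift of all transcripts. Settings, scanner files and detection calls were not used here.

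Symbols came from the platform annotation, and 41037 of 41091 single-gene probe sets were matched to RefSeq and took its symbol, whether or not it differed. The 62 control probe sets were left out of tests. Cortistatin A and DMSO were compared with limma 3.58.1 in R 4.3.3 (lmFit, eBayes, a single group term, two-sided p, Benjamini-Hochberg adjustment over 19775 genes, threshold 0.05, 4 residual and 2.68 prior degrees of freedom). The step was tested on simulated data. Members and lists were chosen with earlier results of these data known. Named were the 8 members, the 5 of the wider network, called genes and up to 4 with the smallest p of each of the 9 other lists, and the 5 genes most like MYC; ARRDC4, FBXW7 and EPCAM were named outside this rule after their values were seen. Alternatives were those plotted for MYC and MNT, plus a fold of at least 1.2 and an adjusted p under 0.1; the fits with the index of 3 human mRNA controls and over all probe sets were chosen after seeing the data. No pair of arrays shared more than 678 identical values, so none is a copy.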

Additional observations from a re-analysis of the deposited data

How the results depend on the processing

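The number of genes called moved from 115 to 321 with dim genes left out, 76 for the mean over probe sets, 54 without _x_at and _s_at probe sets, 75 with housekeeping centring, 762 with trend and robust variances, 260 at an adjusted p under 0.1, 28 over all probe sets, and 0 with either index as a covariate, where 1960 and 1934 genes had an unadjusted limma p under 0.05. The number of members called was 2 with dim genes left out and with trend and robust variances, MYC and MNT, and 0 with housekeeping centring, either index, all probe sets, or without _x_at and _s_at probe sets, where MYC and MXD3 were not measured. The MYC call ended with housekeeping centring (0.37), the index of all control transcripts (0.41), that of 3 human mRNA controls (0.40) and all probe sets (0.39). Without 1 array the fits called 0 to 4 genes and 0 of the members, and MYC was at 0.37 to 0.41. Members near 0 changed sign with no call: MAX without _x_at and _s_at probe sets (-0.032); MXD1 with housekeeping centring (-0.013), with the index of human mRNA controls (-0.091) and without 1 array (-0.030 to 0.039); MXD3 with housekeeping centring (-0.012), with the index of all controls (-0.012) and without 1 array (-0.0051 to 0.024); and MGA with the mean of probe sets (0.0040), with the index of human mRNA controls (0.00075) and without 1 array (-0.019 to 0.015). The cause was not tested.

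The replicate numbers showed no pairing of the samples in these values. Deviations of same-numbered arrays from their group means correlated across genes at -0.05, 0.0095 and 0.02. For arrays with different numbers the correlations were -0.04 to 0.03. Whether same-numbered wells were handled together cannot be told from these values. With the replicate number as a block 0 genes and 0 members were called, MYC stood at 0.39 (limma adjusted p = 0.230), and 2243 genes had an unadjusted p under 0.05. The number of arrays limits the precision, and no sequencing depth applies.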
